A study of Mus musculus with 10 samples.

Results

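The 45 cell cycle and mitosis genes were chosen by name, and each was present once among the 29868 genes of the deposited table. They were divided by the phase in which their products act into 8 G1 genes, 13 S-phase genes and 24 mitotic genes. The MI_NAV group (5 libraries) came from wild-type mice with myocardial infarction (MI) given navarixin (Nav), an inhibitor of the chemokine receptor CXCR2, and the MI group (5 libraries) from wild-type mice with MI and no Nav. In the general protocol of the study, 8-week-old male C57BL/6 mice had the left anterior descending artery ligated and then received Nav at 1 mg/kg or saline by mouth once daily for 4 weeks. The day on which the sequenced tissue was taken is not stated, and no uninjured group is among these libraries. The comparison of MI_NAV with MI asked how Nav altered gene expression after infarction, and here how it bore on proliferation genes.

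Cells enter the cycle when D cyclins with Cdk4, and then E cyclins with Cdk2, phosphorylate the retinoblastoma protein and free E2F transcription factors. E2F switches on the genes of DNA replication in S phase. Later the cyclin B-Cdk1 kinase drives mitosis, the aurora and polo kinases build the spindle, and the anaphase-promoting complex destroys cyclins and separates the chromosomes. S-phase and mitotic transcripts are scarce in resting adult organs and are known as signs of dividing cells, whereas D cyclins are also made by resting and growing cells.

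All libraries were labelled as heart, but 12 of 13 cardiomyocyte genes in the table averaged below 0.5 FPKM (fragments per kilobase of transcript, scaled to the mapped total). Their summed level was 1.31 to 2.40 FPKM in MI_NAV and 1.49 to 2.97 FPKM in MI libraries, while 10 genes of the kidney proximal tubule summed to 35281 to 52597 FPKM in MI_NAV and 32105 to 58585 FPKM in MI libraries. The labelled tissue therefore lacked its defining markers, and values are given by the libraries' labels. Estimated depth was 16680000 to 20390000 fragments per MI_NAV library and 17720000 to 18820000 per MI library. The share of summed FPKM from the mitochondrial genome was 26.0 to 45.4% in MI_NAV and 24.4 to 40.6% in MI libraries. The sample titles carry only the group and a number, so any batch that follows the group cannot be told apart from treatment. The labels do not say which mouse gave which library, so the p-values speak only to library-to-library spread, which may be technical.

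Mitotic genes were at lower levels in MI_NAV than in MI libraries, S-phase genes less so, and D cyclins and Cdk4 were at similar levels. The 24 mitotic genes summed to 12.9, 6.06, 9.06, 7.13 and 10.1 FPKM in MI_NAV1 to MI_NAV5, against 30.1, 18.7, 19.8, 10.9 and 23.9 FPKM in MI_1 to MI_5. The groups overlapped through MI_4, whose sum lay between those of MI_NAV5 and MI_NAV1. The mean sum was 9.06 ± 2.68 FPKM in MI_NAV and 20.7 ± 7.07 FPKM in MI (SD, n = 5 each), a ratio of 0.438, which was 0.391 without MI_4 and 0.494 without MI_1. The 13 S-phase genes summed to 33.9 ± 5.35 FPKM in MI_NAV and 42.7 ± 9.94 FPKM in MI (ratio 0.793). Pcna alone made up 16.4 FPKM of this mean sum in MI_NAV and 17.9 FPKM in MI (ratio 0.916), so it weighs heavily on the S-phase ratio. The 8 G1 genes, most of whose sum is Ccnd1 and Cdk4, came to 57.0 ± 8.16 FPKM in MI_NAV and 60.2 ± 9.13 FPKM in MI (ratio 0.947). These sums and ratios are descriptions without a test. In whole tissue, fewer dividing cells and less of these transcripts per cell cannot be told apart.

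**Figure D1:**
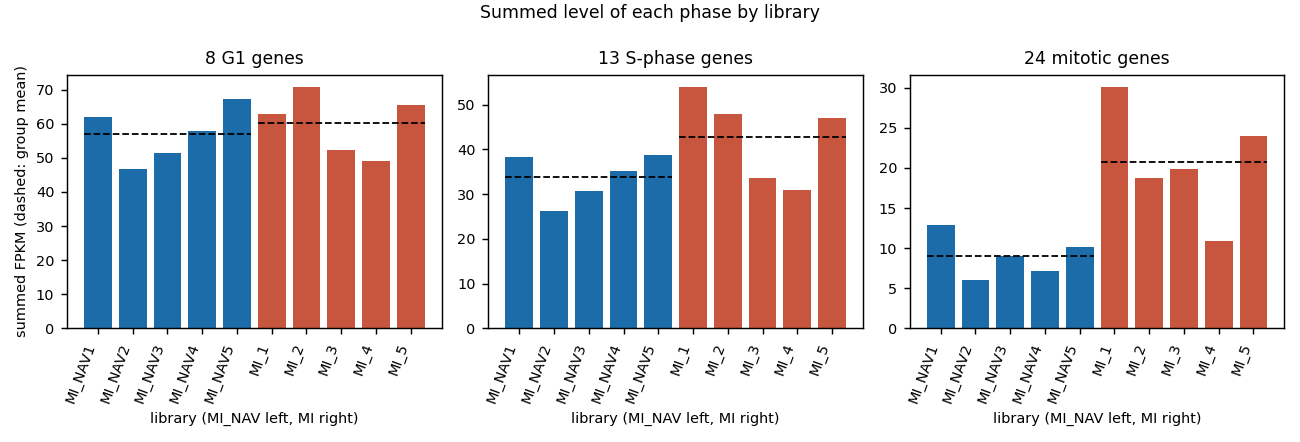
Summed FPKM (y axis) of the G1, S-phase and mitotic genes in each library (x axis, MI_NAV on the left and MI on the right), with dashed lines at the group means. The mitotic sums run from 6.06 to 12.9 FPKM in MI_NAV and from 10.9 to 30.1 FPKM in MI libraries, with MI_4 the lowest of its group, while the G1 sums of the groups overlap widely.

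No gene among the 45 passed the test over all genes. Of the 28 that reached at least 0.5 FPKM in at least 5 libraries and were tested with limma on log2(FPKM + 0.5), 0 were called at an adjusted p under 0.05 and a log2 fold change of at least 1 in either direction, against 0.224% of all 13412 tested genes. At an adjusted p under 0.05 alone the count was also 0, against 0.365%. At an unadjusted p under 0.05 from limma, 14 of the 28 were lower in MI_NAV, against 11.5% of all tested genes, and 0 were higher, against 1.25%. All fold changes here are MI_NAV over MI on a log2(FPKM + 0.5) scale, where low genes show less than their full ratio. They were negative for 27 of the 28, against 71.7% of all tested genes. The median log2 fold change over all tested genes was -0.12, and 0.03 after median-of-ratios scaling, so these counts stand beside a shift of all genes.

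The filter on low values bears on these counts, because 14 of the 24 mitotic genes did not pass it and Mki67 passed through MI libraries alone. With no filter, all 45 genes could be fitted, and again 0 passed after adjustment. In that fit, 22 of 24 mitotic, 4 of 13 S-phase and 2 of 8 G1 genes were lower in limma at p under 0.05 before adjustment, against 8.34% of all genes. The median log2 fold change was -0.57 for mitotic, -0.28 for S-phase and -0.26 for G1 genes, beside -0.04 for all genes. With median-of-ratios scaling added, the medians were -0.49, -0.16 and -0.11, beside -0.00 for all genes, and 20 mitotic, 3 S-phase and 1 G1 genes were lower in limma at p under 0.05 before adjustment, against 5.72% of all genes. All 24 mitotic genes had negative values under either scaling, while Pcna, Tyms and Cdk4 turned positive with median-of-ratios scaling and Ccnd1 turned negative after rescaling to TPM. The genes share the same 10 libraries and do not vary independently, so their number is not a number of replicates.

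**Figure D2:**
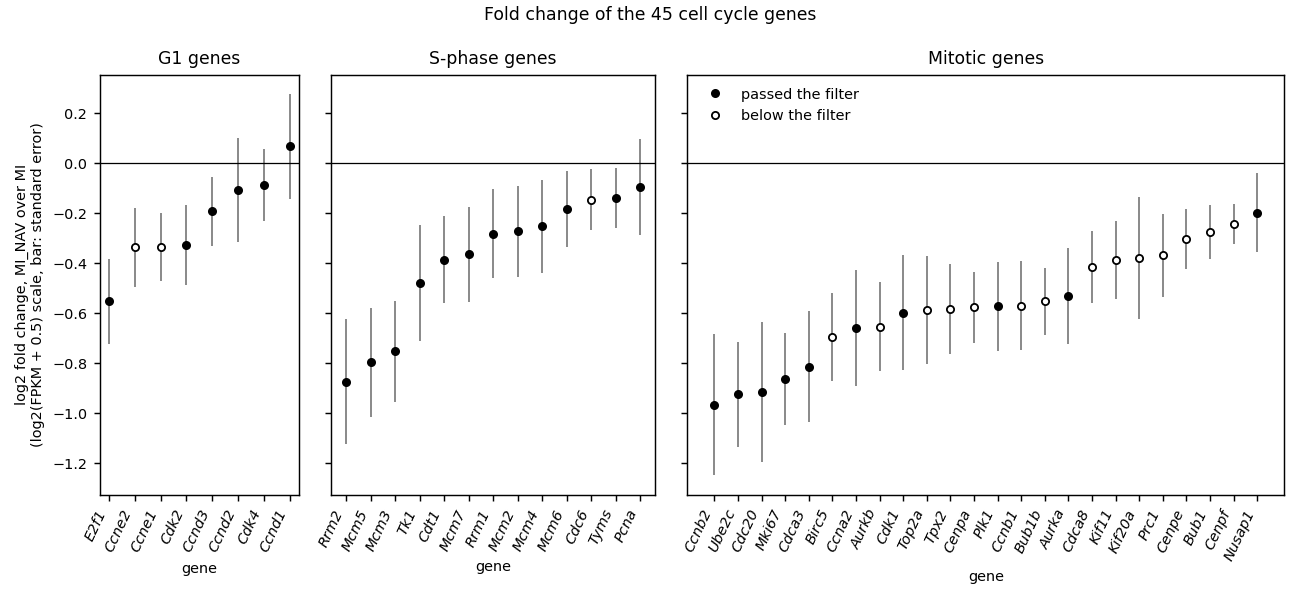
Log2 fold change of MI_NAV over MI (y axis, log2(FPKM + 0.5) scale, bars are standard errors) for each of the 45 genes (x axis), from the fit with no filter on low values, where filled points are genes that passed the filter. All 24 mitotic genes lie below 0, between -0.97 (Ccnb2) and -0.20 (Nusap1), while Ccnd1 lies at 0.07, and with median-of-ratios scaling Pcna, Tyms and Cdk4 also lie above 0.

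MI_4 and MI_1 stood at the ends of the MI group. MI_1 had the highest of the 10 values for 18 of the 24 mitotic genes and for 6 of the 13 S-phase genes. MI_4 had the lowest MI value for 21 of 24 mitotic and 9 of 13 S-phase genes. Its low values were not particular to mitotic genes either, since its G1 and S-phase sums (49.1 and 30.9 FPKM) were the lowest of the MI libraries. The mitochondrial share of MI_4 was 36.3%, and that of MI_3, the highest in MI, was 40.6%. Among MI_NAV libraries, MI_NAV1 was the highest for 15 and MI_NAV2 the lowest for 12 of the 24 mitotic genes. The same held for the low values of MI_NAV2. It had the highest mitochondrial share (45.4%) and the lowest G1 and S-phase sums of the 10 libraries (46.8 and 26.1 FPKM). No value of any MI_NAV library was the highest of the 10 for a mitotic or S-phase gene. The groups did not overlap for 8 of the 45 genes, all lower in MI_NAV (Mki67, Ccnb1, Aurkb, Bub1b, Cenpa, Cenpf, Ube2c and Mcm5), against 1.88% of all genes with a value above 0. Of these, Mki67, Ube2c and Mcm5 were among the tested genes, where 2.57% of all did not overlap and were lower.

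Without MI_4, the groups did not overlap for 23 of the 45 genes (18 mitotic, 4 S-phase and 1 G1), against 4.27% of all genes. Since MI_4 held the lowest MI value of most of these genes, leaving it out had to raise the count, which is given as a description. Without MI_1, 8 of 45 did not overlap, against 2.19%. No member passed at an adjusted p under 0.05 from limma in 21 of 25 alternative fits, among them the 9 that left out 1 library other than MI_4. In the fit without MI_4, 8 of 27 tested members passed at an adjusted p under 0.05 from limma and were lower in MI_NAV, against 2.17% of all genes. They were Cdc20, Mcm3, Ube2c, Rrm2, Ccnb2, Cdk1, Ccna2 and Mcm5, with adjusted p between 0.00408 (Cdc20) and 0.0495 (Mcm5). MI_4 held the lowest MI value of each of these 8 genes, so leaving it out favoured their passing, and this count too is a description. Mki67 was not in that fit, since with MI_4 left out it reached 0.5 FPKM in fewer than 5 libraries. With array weights, 9 of 28 tested members passed and were lower in MI_NAV, against 2.39% of all genes that passed and were lower. Without the 4 libraries of highest mitochondrial share (MI_NAV2, MI_NAV3, MI_3 and MI_4), 4 of 35 tested members passed and were lower, against 1.8% of all genes. With voom on estimated fragments 1 of 28 passed and was lower, Mki67, against 0.373%. Mki67, which also passed with array weights and without those 4 libraries, met the filter through MI libraries alone, so its passing is no support.

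**Figure D3:**
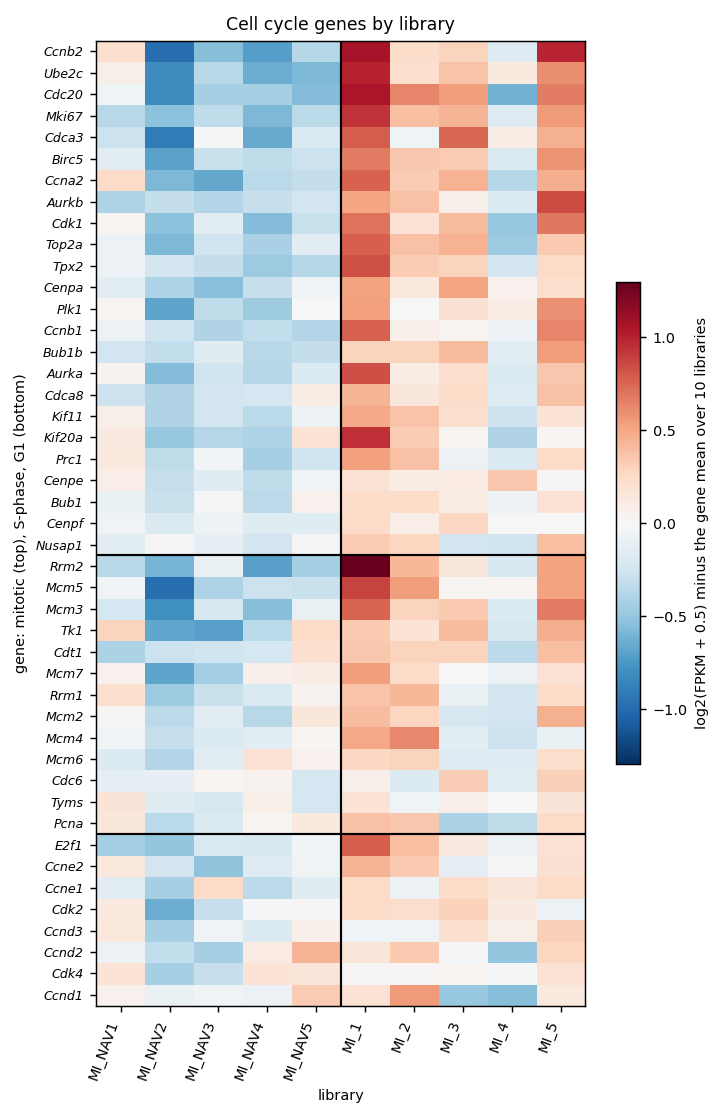
Each gene's log2(FPKM + 0.5) minus its mean over the 10 libraries (colour, red above and blue below that mean), with the 45 genes in rows (mitotic at the top, then S-phase and G1) and the libraries in columns (MI_NAV left of MI). The mitotic rows are red in MI_1, where 18 of 24 genes have their highest value, and mostly blue in the MI_NAV columns, and MI_4 is the palest or bluest MI column for most of them.

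Mki67 encodes Ki-67, the coat protein of mitotic chromosomes that serves as the usual marker of dividing cells. It was at 0.437, 0.334, 0.456, 0.303 and 0.442 FPKM in MI_NAV1 to MI_NAV5, against 1.81, 1.07, 1.13, 0.573 and 1.26 FPKM in MI_1 to MI_5. The groups did not overlap, and MI_4 was again the lowest MI library. Its log2 fold change, -0.86 (SE, the standard error, 0.186), had a limma adjusted p of 0.0716, which missed the threshold. Over the alternative settings in which it was tested, its adjusted p lay between 0.00808 and 0.230. Top2a, the topoisomerase that untangles chromosomes, averaged 0.309 ± 0.114 FPKM in MI_NAV and 0.751 ± 0.352 FPKM in MI (SD, n = 5 each), and its value in MI_4, 0.208 FPKM, lay among those of MI_NAV. Mki67 rested on an estimated 54 to 328 fragments per library, whereas 18 of the 24 mitotic genes had a library with under 10 estimated fragments, so their single values are imprecise.

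Cyclins A and B and their kinase Cdk1 carry cells into mitosis. Ccnb2 (cyclin B2) was at 1.61, 0.417, 0.740, 0.607 and 0.903 FPKM in MI_NAV1 to MI_NAV5, against 3.31, 1.64, 1.73, 1.12 and 3.10 FPKM in MI_1 to MI_5. MI_NAV1 lay just under MI_2 and above MI_4, so the groups overlapped. Its log2 fold change was -0.97 (SE 0.267, limma adjusted p = 0.153), the largest among the members. Ccnb1 (cyclin B1) was lower in level, with 0.169 ± 0.0617 FPKM in MI_NAV and 0.520 ± 0.282 FPKM in MI (SD, n = 5 each), and its groups did not overlap. Ccna2 (cyclin A2) averaged 0.655 ± 0.313 FPKM in MI_NAV and 1.33 ± 0.475 FPKM in MI, and Cdk1 0.356 ± 0.152 FPKM in MI_NAV and 0.834 ± 0.395 FPKM in MI (SD, n = 5 each). In these genes MI_4 lay within or just above the MI_NAV range.

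Cdc20 and Ube2c act in the anaphase-promoting complex, Cdc20 as its activator and Ube2c as its ubiquitin-conjugating enzyme. Ube2c was at 0.636, 0.112, 0.339, 0.190 and 0.219 FPKM in MI_NAV1 to MI_NAV5, against 1.64, 0.748, 0.892, 0.670 and 1.13 FPKM in MI_1 to MI_5. Its groups did not overlap, though MI_NAV1 came close to MI_4. Its ratio of means, 0.294, was the lowest of the 45 genes, nearly equal to that of Aurkb (0.295). Ube2c rested on an estimated 2 to 29 fragments per library, so these values are imprecise. The log2 fold change was -0.92 (SE 0.208, limma adjusted p = 0.0834). Cdc20 was at 1.28, 0.550, 0.867, 0.871 and 0.746 FPKM in MI_NAV1 to MI_NAV5, against 3.34, 2.35, 2.19, 0.707 and 2.41 FPKM in MI_1 to MI_5. The other MI libraries were all above 2 FPKM, and MI_4 lay between MI_NAV2 and MI_NAV5. Its log2 fold change was -0.91 (SE 0.264, limma adjusted p = 0.167), and -1.18 with an adjusted p of 0.00408 without MI_4 but -0.76 with an adjusted p of 0.384 without MI_1. Cdca3, which triggers mitotic entry through the degradation of Wee1, averaged 0.873 ± 0.328 FPKM in MI_NAV and 1.92 ± 0.614 FPKM in MI (SD, n = 5 each, adjusted p = 0.129 from limma).

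**Figure D4:**
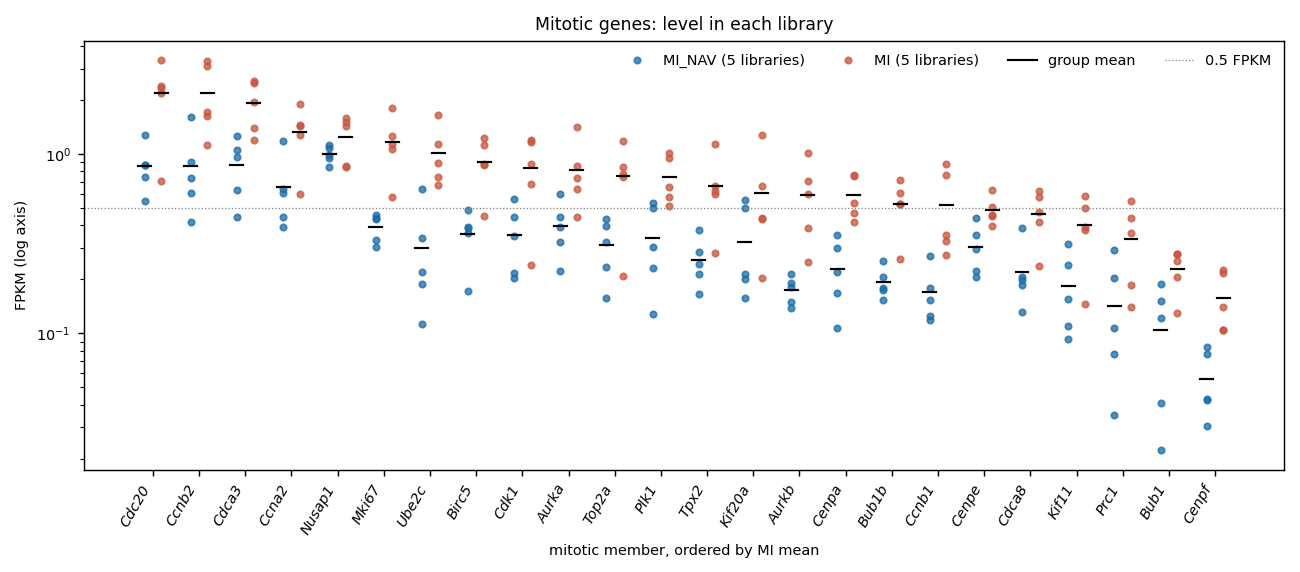
FPKM of the 24 mitotic genes (x axis, ordered by MI mean) in each library on a log axis, with MI_NAV points left of MI points, group means as black bars and a dotted line at 0.5 FPKM. The means of MI_NAV are below those of MI for each gene, and the points do not overlap for Mki67, Ube2c, Aurkb, Cenpa, Bub1b, Ccnb1 and Cenpf.

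The mitotic kinases and the genes of the spindle checkpoint were near the lower limit of these libraries. Aurkb, the kinase of the chromosomal passenger complex, was at 0.139 to 0.214 FPKM (median 0.182) in MI_NAV and 0.250 to 1.02 FPKM (median 0.600) in MI, with no overlap and a ratio of means of 0.295. Birc5 (survivin) and Cdca8 (borealin), partners of Aurkb in that complex, averaged 0.360 and 0.221 FPKM in MI_NAV and 0.909 and 0.466 FPKM in MI. Aurka, the kinase of the spindle poles, averaged 0.397 ± 0.142 FPKM in MI_NAV and 0.819 ± 0.364 FPKM in MI, and its activator Tpx2 0.257 ± 0.0798 FPKM in MI_NAV and 0.661 ± 0.307 FPKM in MI (SD, n = 5 each). Plk1, the polo kinase, averaged 0.339 ± 0.174 FPKM in MI_NAV and 0.743 ± 0.229 FPKM in MI (adjusted p = 0.219 from limma). The checkpoint kinase genes Bub1b and Bub1 averaged 0.193 and 0.105 FPKM in MI_NAV and 0.527 and 0.229 FPKM in MI, without overlap for Bub1b.

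Kinetochore and spindle genes varied more in the size of the difference. Cenpa, the histone of the centromere, was at 0.107 to 0.353 FPKM in MI_NAV and 0.419 to 0.764 FPKM in MI, and Cenpf, a kinetochore protein, at 0.0305 to 0.0840 FPKM in MI_NAV and 0.104 to 0.226 FPKM in MI, both without overlap. Cenpe, a kinetochore motor, differed less (ratio of means 0.622), and it was the mitotic gene whose highest value of the 10 was in MI_4. The motors Kif11 and Kif20a, of spindle assembly and of cytokinesis, had ratios of means of 0.456 and 0.537, and Prc1, a microtubule bundler of the central spindle, 0.425. Nusap1, a spindle-associated protein, was at 0.954, 1.12, 0.986, 0.851 and 1.09 FPKM in MI_NAV1 to MI_NAV5, against 1.51, 1.44, 0.860, 0.844 and 1.59 FPKM in MI_1 to MI_5. Its MI values formed a high set of 3 and a low pair, MI_3 and MI_4, that lay at the low end of MI_NAV, and its log2 fold change of -0.20 was the smallest of the mitotic genes (adjusted p = 0.635 from limma).

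Mitotic promoters are known for a cell cycle homology region (CHR), bound by the DREAM and MuvB complexes, together with CCAAT boxes bound by NF-Y, whereas promoters of S-phase genes are known for E2F sites. Promoters of 37 of the 45 genes were found in the RefSeq table of GRCm38.p6, from 250 bases before to 50 after the start site, and were searched on both strands for the CCAAT box, for TTTGAA as the CHR, and for the E2F forms TTTCCCGC and, as another, TTTGGCGC. A CCAAT box can overlap its own reverse, as can the second E2F form, and a CCAAT box can share its last base with a CHR or E2F match, and each match was counted. The 250 bases before the start site are shown, 5′ to 3′, for 3 mitotic genes, in capitals where a CCAAT box or a CHR lies, to show the arrangement of these elements near the start site.
Cdc20 (chr4:118437344-118437593, minus strand): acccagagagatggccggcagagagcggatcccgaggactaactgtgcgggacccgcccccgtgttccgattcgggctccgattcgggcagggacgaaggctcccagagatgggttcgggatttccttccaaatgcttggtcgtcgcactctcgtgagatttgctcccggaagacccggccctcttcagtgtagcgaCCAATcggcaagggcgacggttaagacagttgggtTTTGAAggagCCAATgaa
Ube2c (chr2:164769679-164769928, plus strand): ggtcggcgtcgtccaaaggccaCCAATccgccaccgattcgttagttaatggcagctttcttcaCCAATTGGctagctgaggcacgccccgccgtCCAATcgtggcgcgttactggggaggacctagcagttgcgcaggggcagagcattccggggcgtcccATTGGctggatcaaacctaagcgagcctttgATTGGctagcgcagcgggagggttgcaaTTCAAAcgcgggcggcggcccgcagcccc
Cdk1 (chr10:69352913-69353162, minus strand): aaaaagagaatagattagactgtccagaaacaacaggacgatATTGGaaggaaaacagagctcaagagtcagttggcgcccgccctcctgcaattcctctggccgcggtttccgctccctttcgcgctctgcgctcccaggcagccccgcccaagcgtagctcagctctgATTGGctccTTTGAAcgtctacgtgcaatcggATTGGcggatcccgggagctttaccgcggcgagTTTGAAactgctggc

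TTTGAA was found in the promoters of 15 of 20 mitotic genes (75%), 1 of 12 S-phase genes (8.33%) and 0 of 5 G1 genes, against 20.2% of all 27025 genes with a promoter in the table. All 15 of these mitotic promoters also held a CCAAT box, a combination found in 7.97% of all genes. CCAAT alone was in 18 of 20 mitotic, 8 of 12 S-phase and 2 of 5 G1 genes, against 41.1% of all genes. Of the mitotic genes without overlap between the groups, Mki67, Ube2c, Bub1b, Cenpa and Cenpf had a TTTGAA match and Ccnb1 had none, and the promoter of Aurkb was not used here. Nusap1 and Birc5 had none of the motifs searched. A match is a description of the sequence, and no binding was measured in these libraries.

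**Figure D5:**
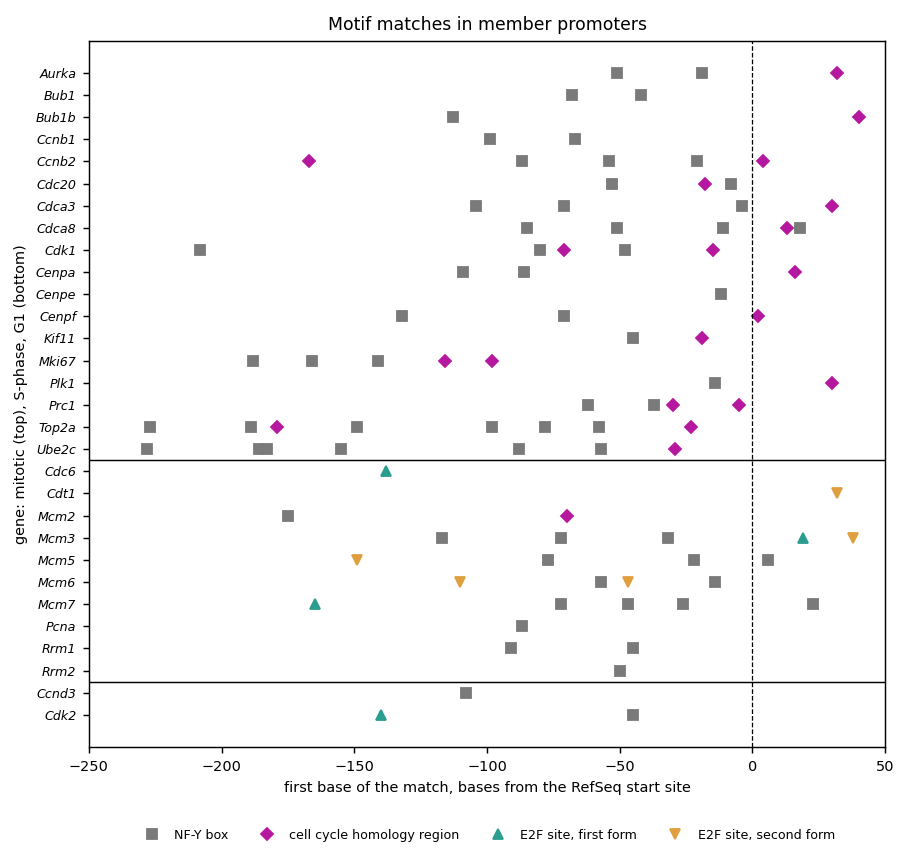
Position of each motif match (x axis, bases from the RefSeq start site, dashed line) in the promoters of members with at least 1 match (rows, mitotic at the top, then S-phase and G1). CHR matches lie in 15 mitotic promoters and 1 S-phase promoter, and E2F matches in 6 S-phase and 1 G1 genes and in 0 mitotic genes.

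S-phase genes divided into a few with sizeable differences and a larger number with small ones. Rrm2, the small subunit of ribonucleotide reductase that is made chiefly in S phase, was at 1.18, 0.926, 1.53, 0.828 and 1.10 FPKM in MI_NAV1 to MI_NAV5, against 4.81, 2.40, 1.89, 1.37 and 2.60 FPKM in MI_1 to MI_5. MI_1 was far above the other libraries, and MI_4 lay below MI_NAV3. The log2 fold change was -0.87 (SE 0.238, limma adjusted p = 0.148), and -1.04 (adjusted p = 0.0248) without MI_4 but -0.66 (adjusted p = 0.278) without MI_1. Its partner Rrm1, the large subunit, averaged 0.988 ± 0.279 FPKM in MI_NAV and 1.31 ± 0.356 FPKM in MI (SD, n = 5 each, adjusted p = 0.519 from limma). The enzymes of thymidine supply also differed in size of difference, with a ratio of means of 0.666 for Tk1 (thymidine kinase) and 0.893 for Tyms (thymidylate synthase).

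The Mcm2 to Mcm7 proteins form the ring of the replicative helicase, in equal parts, but their transcripts did not differ to the same extent. Mcm5 was at 1.00, 0.287, 0.673, 0.781 and 0.773 FPKM in MI_NAV1 to MI_NAV5, against 2.36, 1.75, 1.08, 1.08 and 1.73 FPKM in MI_1 to MI_5. It was the S-phase gene without overlap between the groups, with a log2 fold change of -0.80 (SE 0.211, limma adjusted p = 0.129). Mcm3 was at 0.830, 0.401, 0.852, 0.568 and 0.963 FPKM in MI_NAV1 to MI_NAV5, against 2.13, 1.40, 1.48, 0.887 and 2.00 FPKM in MI_1 to MI_5. MI_4 lay below MI_NAV5, and the other 4 MI libraries lay above each MI_NAV library. The log2 fold change was -0.75 (SE 0.199, limma adjusted p = 0.129). Mcm7, Mcm2, Mcm4 and Mcm6 had log2 fold changes of -0.37, -0.27, -0.25 and -0.18, with adjusted p between 0.433 and 0.651 from limma, and their groups overlapped. Whether Mcm3 and Mcm5 differ from the other subunits was not tested. The promoters of Mcm5 and Mcm6 are shown as a pair of helicase genes with a large and a small fold change, with E2F sites and CCAAT boxes in capitals.
Mcm5 (chr8:75109259-75109508, plus strand): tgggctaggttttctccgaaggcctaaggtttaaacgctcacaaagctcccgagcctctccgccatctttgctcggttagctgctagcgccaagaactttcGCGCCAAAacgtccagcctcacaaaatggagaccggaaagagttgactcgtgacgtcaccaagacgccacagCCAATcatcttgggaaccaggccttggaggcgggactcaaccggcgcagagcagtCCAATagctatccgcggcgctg
Mcm6 (chr1:128359706-128359955, minus strand): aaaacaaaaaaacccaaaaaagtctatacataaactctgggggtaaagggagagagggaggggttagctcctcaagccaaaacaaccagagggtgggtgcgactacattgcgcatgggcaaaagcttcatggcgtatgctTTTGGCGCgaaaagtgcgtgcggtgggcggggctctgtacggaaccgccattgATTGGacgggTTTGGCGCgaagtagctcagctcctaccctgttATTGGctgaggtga

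Both promoters hold the form TTTGGCGC or its reverse, 1 match in Mcm5 and 2 in Mcm6. At least 1 of the 2 E2F forms was in 6 of 12 S-phase, 1 of 5 G1 and 0 of 20 mitotic promoters, against 1.8% of all genes. The S-phase genes with a match were Mcm3, Mcm5, Mcm6, Mcm7, Cdc6 and Cdt1, whose log2 fold changes lay between -0.80 (Mcm5) and -0.15 (Cdc6, fitted with no filter).

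Cdt1 and Cdc6 load the helicase onto origins. Cdt1 was at 0.742, 0.868, 0.884, 0.917 and 1.41 FPKM in MI_NAV1 to MI_NAV5, against 1.61, 1.52, 1.52, 0.803 and 1.66 FPKM in MI_1 to MI_5. MI_4 lay among the MI_NAV libraries and the other 4 MI libraries were above them, with a log2 fold change of -0.39 (adjusted p = 0.383 from limma). Cdc6 stayed between 0.0563 and 0.169 FPKM in MI_NAV and between 0.0730 and 0.307 FPKM in MI libraries, an estimated 3 to 17 fragments per library, and the groups overlapped. Pcna, the sliding clamp of replication and repair, had the highest level of the S-phase genes, 16.4 ± 2.43 FPKM in MI_NAV and 17.9 ± 4.64 FPKM in MI (SD, n = 5 each). Its MI values ran from 12.5 FPKM in MI_3 to 22.1 FPKM in MI_1 and enclosed those of MI_NAV (adjusted p = 0.864 from limma).

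Among G1 genes, Ccnd1 (cyclin D1) and Cdk4 had the highest levels of all 45 genes and nearly equal means in both groups. Ccnd1 was at 26.5, 24.02, 24.7, 24.2 and 32.2 FPKM in MI_NAV1 to MI_NAV5, against 29.2, 37.7, 18.1, 17.3 and 28.0 FPKM in MI_1 to MI_5. The MI libraries were more spread than the MI_NAV libraries and lay on both sides of them. Its log2 fold change was 0.07 (SE 0.204, limma adjusted p = 0.923). Cdk4 was at 20.7 ± 4.12 FPKM in MI_NAV and 21.7 ± 1.34 FPKM in MI (SD, n = 5 each, adjusted p = 0.844 from limma), with the lowest values in MI_NAV2 (15.5 FPKM) and MI_NAV3 (17.0 FPKM). Ccnd3 averaged 6.86 ± 1.11 FPKM in MI_NAV and 7.87 ± 0.961 FPKM in MI, and Ccnd2 0.669 ± 0.292 FPKM in MI_NAV and 0.755 ± 0.266 FPKM in MI (SD, n = 5 each), and neither passed (adjusted p = 0.602 and 0.863 from limma).

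E2f1, the activating E2F that is itself an E2F target, had the most negative log2 fold change of the G1 genes on this scale, while Ccne1 had a lower ratio of means (0.414, against 0.521 for E2f1). It was at 0.447, 0.403, 0.613, 0.608 and 0.748 FPKM in MI_NAV1 to MI_NAV5, against 1.68, 1.18, 0.882, 0.711 and 0.957 FPKM in MI_1 to MI_5. MI_4 lay just below MI_NAV5 and the other MI libraries above it, and the log2 fold change was -0.55 (SE 0.176, limma adjusted p = 0.217). Cdk2 averaged 1.38 ± 0.373 FPKM in MI_NAV and 1.83 ± 0.228 FPKM in MI (SD, n = 5 each, adjusted p = 0.425 from limma). The E cyclins, its partners, were low. Ccne2 averaged 0.405 FPKM in MI_NAV and 0.642 FPKM in MI, and Ccne1 0.107 FPKM in MI_NAV and 0.258 FPKM in MI with at most 6 estimated fragments per library and 0 FPKM in MI_NAV2.

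Among other genes of the pathway, fixed as lists, no gene passed after adjustment. Of the CDK inhibitors, 6 of 7 were tested and 0 passed after adjustment, with 1 lower in limma at p under 0.05 before adjustment. In the other lists, the count lower in limma at p under 0.05 before adjustment was 2 of 15 tested genes of the retinoblastoma, E2F and DREAM list, 4 of 21 of the anaphase-promoting complex and checkpoint list, 3 of 25 other replication genes and 1 of 14 p53 targets, and 0 were higher and 0 passed after adjustment in each. Of the 96 further genes that the table's KEGG text puts in the cell cycle pathway, 81 were tested and 11 were lower at an unadjusted p under 0.05, with a median log2 fold change of -0.17. The share of all tested genes at this threshold was 11.5%, and most of these lists lay near it. Cdkn1c (p57, an inhibitor of cyclin-dependent kinases) averaged 2.43 ± 1.09 FPKM in MI_NAV and 5.22 ± 1.25 FPKM in MI (SD, n = 5 each) without overlap, a log2 fold change of -1.02 (adjusted p = 0.0930 from limma). Cdkn1b (p27), the inhibitor of highest level, was at 7.62 ± 1.94 FPKM in MI_NAV and 7.66 ± 0.600 FPKM in MI (SD, n = 5 each). Among other replication genes, Gins4, a helicase partner, had a log2 fold change of 0.01 and Gmnn, the inhibitor of Cdt1, one of -0.19.

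Markers of leukocytes and of endothelial cells were also lower in MI_NAV by their medians, but the order of the libraries was shared only in part. The 17 leukocyte markers in the table summed to 16.1 to 36.6 FPKM (median 24.03) in MI_NAV and 26.9 to 86.2 FPKM (median 70.7) in MI, with 6 tested, of which 5 were lower in limma at p under 0.05 before adjustment (11.5% of all tested genes) and 0 passed after it, and a median log2 fold change of -1.003. The 10 endothelial markers summed to 17.1 to 47.4 FPKM (median 21.1) in MI_NAV and 35.2 to 103 FPKM (median 79.4) in MI, all 10 lower at an unadjusted p under 0.05 (11.5% of all tested genes) and 1, Eng, after adjustment (adjusted p = 0.0317 from limma), against 0.365% of all tested genes. MI_4 was the lowest MI library in both lists, as it was for 21 of 24 mitotic genes, whereas MI_1, the highest in mitotic sum, had leukocyte and endothelial sums below those of MI_2 and MI_5. Within MI_NAV the order was likewise shared only in part. MI_NAV2 had the lowest endothelial and mitotic sums (17.1 and 6.06 FPKM), while MI_NAV3 had the lowest leukocyte sum (16.1 FPKM). MI_NAV4 had the highest leukocyte and endothelial sums (36.6 and 47.4 FPKM) and the lowest mitotic sum but that of MI_NAV2. MI_NAV1 had the highest mitotic sum, with leukocyte and endothelial sums of 31.8 and 21.1 FPKM. The 8 erythroid markers, hemoglobins among them, overlapped widely, with 66.8 to 415 FPKM in MI_NAV and 69.0 to 1048 FPKM in MI and the highest sum in MI_1. Fibroblast markers (7 tested) had 3 below and 1 above MI levels at an unadjusted p under 0.05, and tubule injury markers (8 tested) 0 in either direction. No marker of these lists was at 0 in every library. The part of each cell type in the levels of the mitotic genes was not tested.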

How the data were processed

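The authors deposited FPKM values, fragments per kilobase of transcript scaled to the mapped total, for 29868 genes in 10 libraries (5 MI_NAV, 5 MI). Per the labels, poly(A)-selected, strand-marked libraries were read as paired ends, trimmed with cutadapt 1.9, aligned to mm10 with HISAT2 2.0.4 and quantified with StringTie 1.3.4d. No source names the annotation release. The authors tested with DESeq2 and edgeR, which need counts, so limma took their place. FPKM are not rescaled to a common sum.

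Genes reaching 0.5 FPKM in 5 or more libraries were fitted by group as log2(FPKM + 0.5) with limma 3.58.1 in R 4.3.3 (eBayes with trend and robust prior, Benjamini-Hochberg over all 13412 genes). Calls needed adjusted p under 0.05 with a log2 fold change of 1 or more in size, and members were never adjusted alone. Depth was estimated from 11394 single-transcript genes, taking the most common low value scaled by GENCODE M21 length as 1 fragment. Fragments of a gene used the mean length of its transcripts. Gene IDs matched GENCODE M21 for 99.67%. The fit was tested on simulated data.

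Members, lists, tests and alternatives were chosen with earlier results of these data known. All members could be named, and of other lists the genes past an adjusted p of 0.05 (at most 4) or else the 3 of highest mean, of which 1 is not reported here. Alternatives covered pseudocounts, filters, scalings, variance models, a replicate block, mitochondrial share and each library left out. Voom on estimated fragments, no filter with scaling, and overlap without MI_4 or MI_1 were added after the data were seen. Correlations showed no pairing of libraries by replicate number. Actc1 and Ly6g were not analysed here. Figures used matplotlib 3.10.9.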

Additional observations from a re-analysis of the deposited data

Results flagged for a closer look

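In 56 groups of 5 libraries (28 tested members in each group), 2 members had a library far from the other 4 of its group on the log2 scale, and chance flags about 1 in 20 groups. Cdt1, the loader of the replicative helicase, was at 0.803 FPKM in MI_4, against 1.52 to 1.66 FPKM in the other MI libraries. Cdk4 was at 23.98 FPKM in MI_5, against 20.5 to 21.5 FPKM in the other MI libraries.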

How the results depend on the processing

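The median log2 fold change was -0.15 for G1, -0.32 for S-phase and -0.74 for mitotic members that passed the filter. Without each library in turn it lay between -0.23 and -0.07 for G1, -0.40 and -0.23 for S-phase and -0.87 and -0.64 for mitotic members. A pseudocount of 0.1 moved the mitotic median to -1.03 and voom on estimated fragments, added after the data were seen, to -1.19. No member was called with the main settings. With array weights 5 were called, without the 4 libraries of highest mitochondrial share 3, with voom 1, and without each library in turn 0 to 4, the 4 without MI_4.

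Over all genes, 30 were called. The count was 18 with a pseudocount of 1, 47 after rescaling without mitochondrial genes, 117 with array weights, 206 without the 4 libraries of highest mitochondrial share, 48 with voom and 49 with no fold change threshold. It was 0 with no filter (2809 at an unadjusted p under 0.05 from limma) and 0 with no filter and median-of-ratios scaling (3069). Without each library in turn it was 1 to 194, the highest without MI_4. With median-of-ratios scaling 75% of calls were lower, against 96.7%. In the fit with a replicate block, 6 genes and 0 members were called. Same-numbered libraries correlated between -0.223 and 0.0461, so the numbers pair nothing, and only number 5 matched best with itself.

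Of 730 values of members under alternatives, 693 kept their direction and side of the threshold, 22 passed it and 15 turned sign. Ccnd1 turned to -0.0281 with TPM, -0.0525 with array weights, -0.189 without the 4 libraries of highest mitochondrial share, -0.0066 without MI_NAV5, -0.0468 without MI_3 and -0.0617 without MI_4, within -0.0617 to 0.2129 over each library left out. Cdk4 turned to 0.0913 with median-of-ratios scaling with and without the filter, 0.0553 with array weights, 0.0979 without the 4 libraries and 0.0092 without MI_NAV2, within -0.143 to 0.0092 over each library left out. Pcna turned to 0.0828 and Tyms to 0.0092 with median-of-ratios scaling. The cause was not tested. Of the 24 mitotic genes, 14 stayed below 0.5 FPKM in each MI_NAV library and 2 in each MI library, and such values rest on few fragments.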
